A study of Mus musculus with 9 samples.

Results

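The ischemia zone (IZ) of the mouse left ventricle was set against the non-ischemia zone (NIZ), the muscle remote from the occluded artery, after ischemia-reperfusion (I/R) injury. Expression was measured on arrays, and a level is the log2 signal of a transcript cluster, so that a difference of 1 is 2-fold. Of 19006 protein-coding genes with a cluster of their own, 9489 had a mean level of 6 or more over all arrays. In 462 of these the 3 IZ arrays and the 3 NIZ arrays did not overlap, and these 462 genes are described. Every IZ array lay above every NIZ array in 250 genes (2.63% of the 9489) and below in 212 (2.23%). Over all 65534 clusters, coding or not and at any level, the shares were 1.78% and 4.55%. Since the genes were chosen by these same 6 arrays, their levels are given as a description.

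The tissue came from 3 male C57BL/6 mice aged 8 weeks, in which the left anterior descending artery was closed for 45 min and then opened for 24 h. The left ventricle was divided into IZ, border zone (BZ) and NIZ, and each zone gave 3 arrays of 100 ng of total RNA. All 3 zones therefore came from operated, untreated hearts of 1 strain, and unoperated hearts were not analysed here. Arrays are numbered 1 to 3 within a zone, but which mouse gave which array is not stated in the labels, so that p-values measure only the spread between these samples.

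Closing a coronary artery starves the muscle it feeds, and reopening it brings oxygen back together with leukocytes. Neutrophils are the earliest to enter such tissue, and monocytes follow and turn into macrophages that clear dead cells. The muscle itself, its capillary endothelium and its fibroblasts respond with stress proteins, secreted proteins and vasoactive peptides. In whole tissue, fewer cells of a type and less RNA per cell cannot be told apart.

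No cluster passed the test between IZ and NIZ. With limma across all 65534 clusters, 0 were higher and 0 lower at an adjusted p of 0.05 (0% each), and the smallest adjusted p of any of the 462 genes was 0.999. At an unadjusted p under 0.05 there were 815 clusters higher and 1782 lower (together 3.96%), among them 102 of the 250 higher genes and 69 of the 212 lower genes. The unadjusted split depended on scaling and was 1280 higher and 954 lower after median centring of each array and 1230 and 1194 after quantile normalization. The test of the study's methods likewise called 0 clusters after Benjamini-Hochberg adjustment. Over the 9489 genes, 90.2% of the differences lay within 0.25 log2, and the NIZ arrays spread more than the IZ arrays, with a median SD of 0.125 against 0.0628. The labels give heart as the source but hold the zone under a tag named brain, so that markers of both were read, and 8 cardiomyocyte genes had mean levels from 8.75 to 13.82 and 8 brain genes from 3.56 to 7.23.

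**Figure D1:**
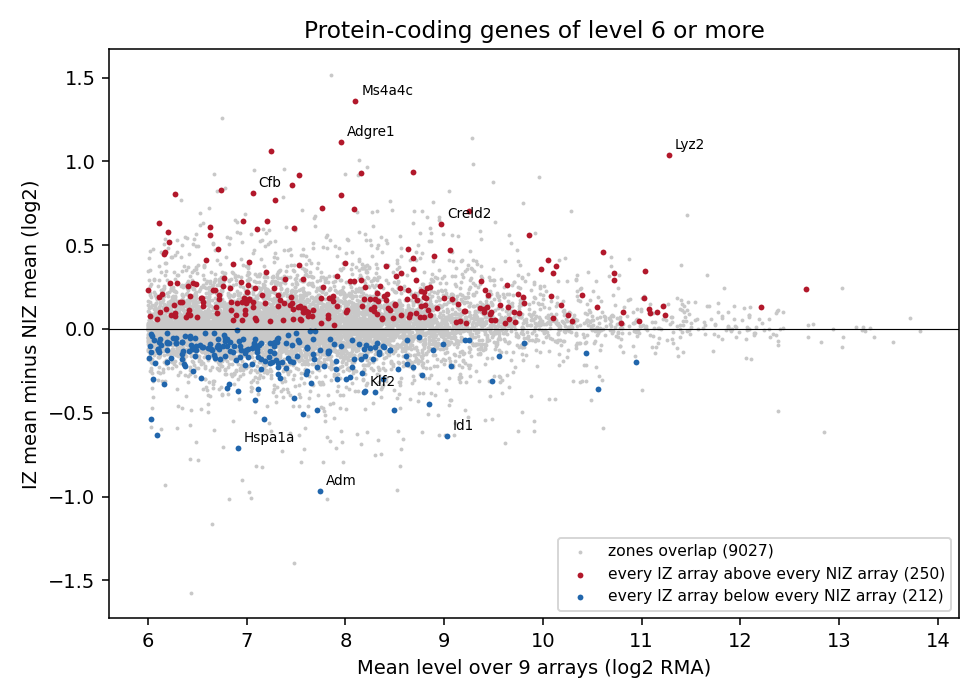
Difference between the IZ mean and the NIZ mean (log2) against the mean level over 9 arrays (log2 RMA) for the 9489 protein-coding genes of level 6 or more. Each point is a gene, red where every IZ array lay above every NIZ array (250 genes), blue where below (212 genes) and grey where the zones overlapped; most coloured points lie close to 0.

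Most of these genes were separated by little. The median difference was 0.17 log2 for the higher genes and -0.13 log2 for the lower genes, and the median gap, the distance between the nearest arrays of both zones, was 0.03 and 0.02. Differences passed 0.5 log2 in 27 higher and 7 lower genes, and the gap passed 0.1 log2 in 30 and 11. Array scaling therefore mattered. After median centring of each array, 1238 genes were without overlap above NIZ and 102 below, and after a further quantile normalization 222 and 410. Of the 250 higher genes 140, and of the 212 lower genes 100, stayed without overlap under all 3 scalings. All 250 higher genes kept a positive difference under all 3, and 206 of the 212 lower genes kept a negative one. These counts do not compare the directions. Median centring raised every difference by the same amount, and the median over all clusters went from -0.0141 to 0.00981. Every IZ array had a lower median than every NIZ array. Centring therefore could neither turn a higher gene nor make it overlap, and only lower genes could change. Among genes that differed by over 0.25 log2, 58 of 72 higher and 25 of 35 lower genes stayed without overlap. Of the higher genes described below, Ly86, C1qb, Oas2, Csf1r, Canx, Sel1l, Dad1, Cdh2, Clu, Copa, Copz1, Sec31a, Gnptab and Naa35 overlapped under another scaling. So did Edn1, Fabp4, Galnt15, Igsf11, Robo4, Tpm1, Smtn, Phlda3, Hif3a and Eif2ak3 among the lower genes.

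The gap was most often set by NIZ replicate 3. This array was the NIZ array nearest to IZ in 160 of the 250 higher genes and in 126 of the 212 lower genes, and the farthest in 31 and 21. Without it the limma fit called 59 clusters higher and 157 lower (0.09% and 0.24%), among them 6 of the higher genes (Pld4, Ly86, Creld2, Gnptab, Naa35 and Enox2) and 1 lower gene (Tatdn2). The genes were chosen on these same arrays, and the array left out is the one that most often lay nearest to IZ, so that these calls are no support for a difference. NIZ replicate 3 also had the lowest mean level of 8 neutrophil markers in NIZ, at 5.67, against up to 8.62 in the other NIZ arrays and 7.05 to 7.92 in IZ. The 4 atrial markers ranged from 7.33 to 10.26 over the NIZ arrays and from 7.16 to 7.65 over the IZ arrays. Their high NIZ array was replicate 2, not replicate 3. Sln, 1 of these markers, was at 10.91 in NIZ replicate 2 and at 5.31 and 5.30 in NIZ replicates 1 and 3. The part of neutrophils or atrial tissue in the differences between zones was not tested.

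The largest differences towards IZ were in genes of myeloid leukocytes. Ms4a4c, of a family of membrane-spanning proteins found on monocytes and macrophages, had IZ levels of 9.20, 8.56 and 8.03 and NIZ levels of 7.42, 7.29 and 7.0. Its difference of 1.36 ± 0.57 log2 (SE of the fit), 2.57-fold, and its gap of 0.60 were the largest of the 462 genes, and the lowest IZ array still stood well above the highest NIZ array. Adgre1, which encodes the macrophage surface receptor F4/80, measured 8.76, 8.66 and 7.85 in IZ and 7.41, 6.89 and 7.62 in NIZ, a difference of 1.12 ± 0.33. IZ replicate 3 was its lowest IZ array and NIZ replicate 3 its highest NIZ array. Clec7a, the beta-glucan receptor dectin-1, was at 7.64, 7.75 and 8.00 in IZ and at 7.40, 6.19 and 6.62 in NIZ, where replicate 1 came within 0.24 of the IZ arrays.

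Lyz2 and Lyz1, neighbouring genes for lysozyme, an enzyme of macrophages and neutrophils that breaks bacterial walls, were among the most evenly separated. Lyz2 was at 11.86, 11.67 and 11.46 in IZ and 10.53, 10.37 and 10.98 in NIZ, a difference of 1.04 ± 0.22 log2 with a gap of 0.48. Lyz1 was at 9.26, 9.05 and 8.89 in IZ and 8.02, 7.86 and 8.52 in NIZ, a difference of 0.94 ± 0.21. The coding sequences of both are nearly identical, so that how the signal divides between them is uncertain. Clec4a1 and Clec4a3, adjacent genes for related C-type lectin receptors of myeloid cells, differed by 0.92 and 0.83 log2.

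**Figure D2:**
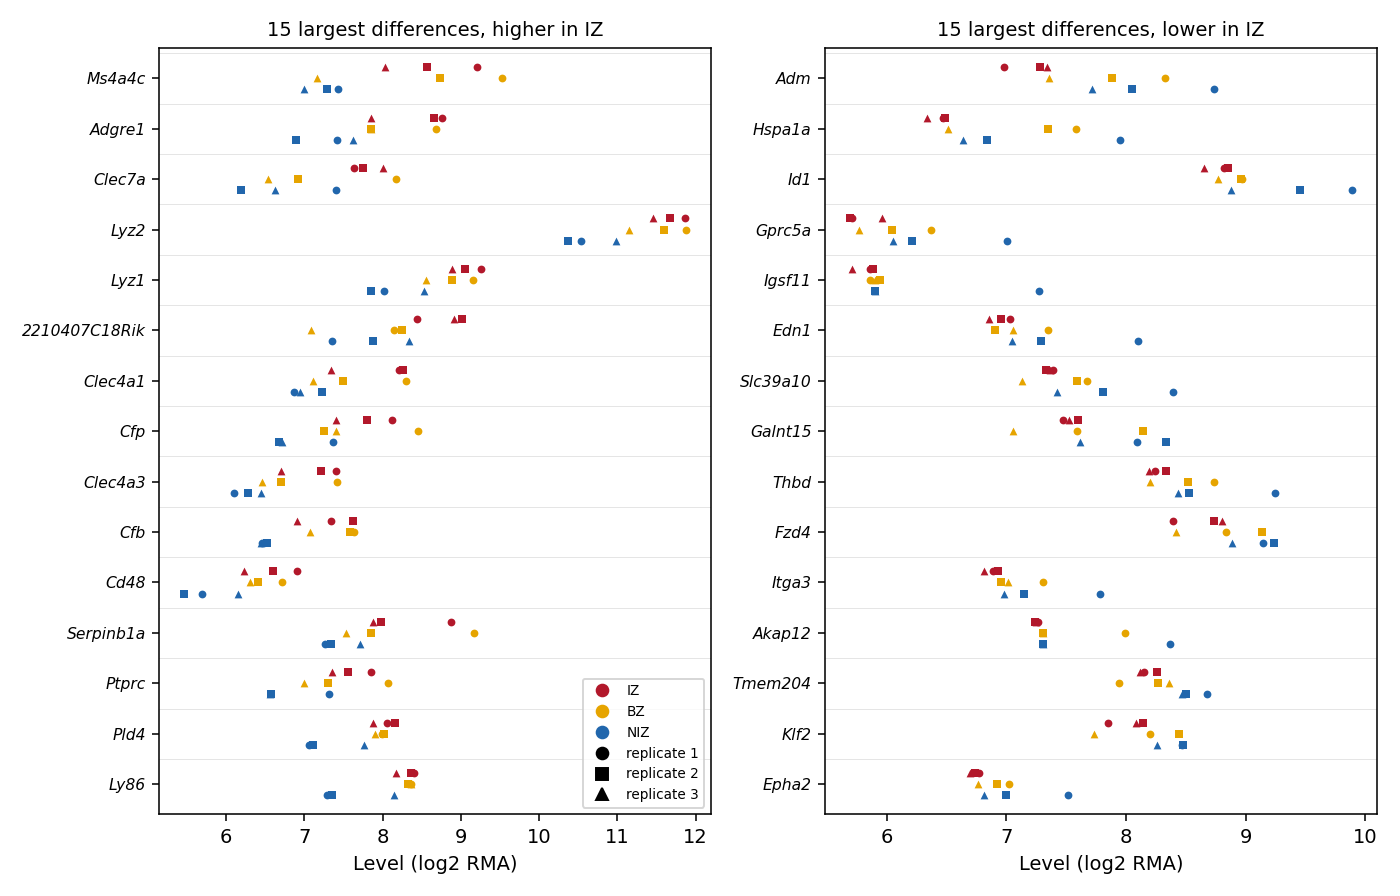
Level (log2 RMA) on each of the 9 arrays for the 15 genes with the largest differences towards IZ (left) and the 15 with the largest differences away from IZ (right). Colours mark the zone and symbols the replicate; red and blue never overlap, by the rule that chose the genes, and in many of the lower genes NIZ replicate 1 stands apart to the right.

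Other leukocyte genes followed with smaller differences. Ptprc, the CD45 phosphatase that all leukocytes carry, was at 7.85, 7.55 and 7.35 in IZ and 7.31, 6.58 and 6.57 in NIZ. Cd48, a surface ligand of leukocytes, differed by 0.81 log2 and Serpinb1a, an inhibitor of neutrophil elastase, by 0.80. Pld4, a lysosomal enzyme that degrades nucleic acids, differed by 0.72. Ly86, the MD-1 partner of a Toll-like receptor relative on antigen-presenting cells, was at 8.40, 8.36 and 8.16 in IZ and 7.29, 7.35 and 8.14 in NIZ. Its replicate 3 arrays were only 0.02 apart, while the other NIZ arrays lay far below every IZ array. Without NIZ replicate 3, Pld4 differed by 0.95 log2 and Ly86 by 0.99. Ctsc, a protease that activates the serine proteases of leukocyte granules, Siglec1, the sialoadhesin of macrophages, and Csf1r, the receptor of the macrophage growth factor, differed by 0.71, 0.60 and 0.48. The role of 2210407C18Rik, at 8.44, 9.02 and 8.91 in IZ and 7.35, 7.87 and 8.34 in NIZ, is not given here.

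Of a list of 44 monocyte and macrophage genes at level 6 or more, 10 were higher in IZ without overlap (22.7%, against 2.63% of all genes) and 0 lower. Positive differences were found in 41 of the 44, with a median of 0.47 log2 against 0.00 over all 9489 genes, and 7 of the 10 stayed without overlap after quantile normalization. The list median was 0.31 without NIZ replicate 3, when 32 of the 44 differences were positive. Of 15 neutrophil genes at level 6 or more, 0 were without overlap, which is near the shares of all genes, 2.63% higher and 2.23% lower. Of these 15, 12 had positive differences, with a median of 0.32 that became -0.31 without NIZ replicate 3. S100a8, which encodes a calcium-binding protein abundant in neutrophils, shows the spread, with 9.38, 9.33 and 10.56 in IZ and 10.81, 9.33 and 6.19 in NIZ. All 8 defining macrophage markers had positive differences and 4 were without overlap, and their mean level ranged from 8.99 to 9.44 over the IZ arrays and from 8.47 to 8.86 over the NIZ arrays. Macrophage genes that overlapped included Mrc1, the mannose receptor of resident macrophages, with a difference of 0.03 log2, and Cd68, a lysosomal protein of macrophages, with 0.48.

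Genes of complement and of the interferon response were the next group. Cfb, factor B of the alternative complement pathway, had NIZ levels of 6.46, 6.53 and 6.45, which lay close together, and IZ levels of 7.34, 7.62 and 6.91, a difference of 0.81 ± 0.20 log2. Cfp, properdin, which stabilises the convertase that factor B forms, differed by 0.86 with a gap of 0.04, since NIZ replicate 1 nearly reached IZ replicate 3. C1qb, a chain of the C1q complex that starts the classical pathway, was at 10.20, 10.09 and 9.79 in IZ and 9.29, 9.34 and 9.77 in NIZ. These were 3 of 15 complement genes at level 6 or more (20%, against 2.63% of all genes), of which 13 had positive differences and the median was 0.21 log2.

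Oas1a and Oas1g encode near-identical oligoadenylate synthetases, which sense double-stranded RNA and switch on RNase L. Oas1a was at 7.76, 7.49 and 7.18 in IZ and 7.04, 6.49 and 6.97 in NIZ, and Oas1g at 7.14, 6.89 and 6.54 in IZ and 6.42, 6.05 and 6.43 in NIZ. Their relative Oas2 differed by 0.34 log2 with a gap of 0.03, and it overlapped after quantile normalization. All 5 oligoadenylate synthetase genes at level 6 or more had positive differences, and 3 were without overlap (60%, against 2.63% of all genes). Of 45 interferon-induced genes at that level, however, these were the only 3 without overlap (6.67%). Positive differences were found in 43 of the 45, with a median of 0.34. IZ replicate 3 was the low array of this list in IZ, since these 45 genes deviated from their mean over 9 arrays by -0.21 log2 on average there, against 0.39 and 0.27 in IZ replicates 1 and 2. Cxcl9, a chemokine that interferon gamma induces, was at 9.44, 9.16 and 7.01 in IZ and 7.0, 6.71 and 7.36 in NIZ and so overlapped despite the largest difference of the 9489 genes, 1.51 log2.

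Antigen presentation was represented by Psmb8, a catalytic subunit of the immunoproteasome, and B2m, the light chain of class I molecules. Psmb8 measured 7.33, 7.20 and 6.90 in IZ and 6.80, 6.66 and 6.77 in NIZ. B2m was at a high level throughout, 12.85, 12.78 and 12.58 in IZ and 12.55, 12.45 and 12.50 in NIZ, and its difference of 0.24 ± 0.07 log2 was 1.18-fold. All 17 antigen presentation genes at level 6 or more had positive differences, with a median of 0.21. Slfn9, of the interferon-inducible Schlafen family, differed by 0.45 log2, Casp1, the protease that matures interleukin-1 beta, by 0.48, and Ccl11, the eosinophil attractant eotaxin, by 0.61. For Ccl11 the levels were 6.30, 6.28 and 7.43 in IZ and 6.15, 6.09 and 5.94 in NIZ, so that IZ replicate 3 stood above the other IZ arrays.

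The promoters of Oas1a and Slfn9 (RefSeq, GRCm38.p6, from 250 bases before to 50 after the start) are shown because they hold the letters of the interferon-stimulated response element (GAAA, any 2 bases, GAAA) in capitals. These letters, on either strand, were in 4.48% of 223 promoters of higher genes, in 2.7% of 222 promoters of lower genes, in 2.95% of the promoters of all genes of level 6 or more and in 3.44% of the 32851 promoters of the table. The table held 201 of the 250 higher and 177 of the 212 lower genes. In Oas1a, on chromosome 5 (chr5:120907476-120907775, minus strand), a pair of overlapping matches runs together just before the start. In Slfn9, on chromosome 11 (chr11:82991781-82992080, minus strand), the letters are on the opposite strand.
Oas1a: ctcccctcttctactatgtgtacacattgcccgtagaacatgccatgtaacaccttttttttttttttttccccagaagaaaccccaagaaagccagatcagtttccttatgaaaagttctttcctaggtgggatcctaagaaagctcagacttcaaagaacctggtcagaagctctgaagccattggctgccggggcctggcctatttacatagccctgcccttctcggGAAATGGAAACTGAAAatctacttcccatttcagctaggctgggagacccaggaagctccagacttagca
Slfn9: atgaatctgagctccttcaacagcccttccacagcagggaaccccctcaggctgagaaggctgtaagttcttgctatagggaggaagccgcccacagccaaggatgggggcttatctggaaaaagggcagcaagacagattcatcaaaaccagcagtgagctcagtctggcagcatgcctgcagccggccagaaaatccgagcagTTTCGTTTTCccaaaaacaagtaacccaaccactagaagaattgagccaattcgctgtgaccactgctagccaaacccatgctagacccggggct

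A group outside the leukocyte lists belonged to the endoplasmic reticulum (ER), where secreted and membrane proteins are folded, glycosylated and, when they misfold, sent for degradation. Creld2, a protein of the ER that cells make under ER stress, measured 9.18, 9.15 and 9.22 in IZ and 8.44, 8.14 and 9.10 in NIZ. The IZ arrays lay close together, and NIZ replicate 3 came within 0.05 of them, so that the difference was 0.62 ± 0.21 log2 with that array and 0.89 without it. Calr, the lectin chaperone calreticulin, was at 10.26, 10.11 and 10.17 in IZ and 9.72, 9.61 and 9.98 in NIZ. Pdia3, the disulfide isomerase that works with calreticulin, was at 10.32, 10.19 and 10.26 in IZ and 9.85, 9.64 and 10.15 in NIZ, and Pdia6, a related isomerase, at 10.24, 9.998 and 9.998 in IZ and 9.76, 9.52 and 9.89 in NIZ. In all 3 of these genes NIZ replicate 3 was again the NIZ array nearest to IZ. Canx, the membrane-bound chaperone calnexin, and Sel1l, an adaptor of the ubiquitin ligase that clears misfolded ER proteins, were separated by gaps of 0.0047 and 0.0025 and differed by 0.10 and 0.15.

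**Figure D3:**
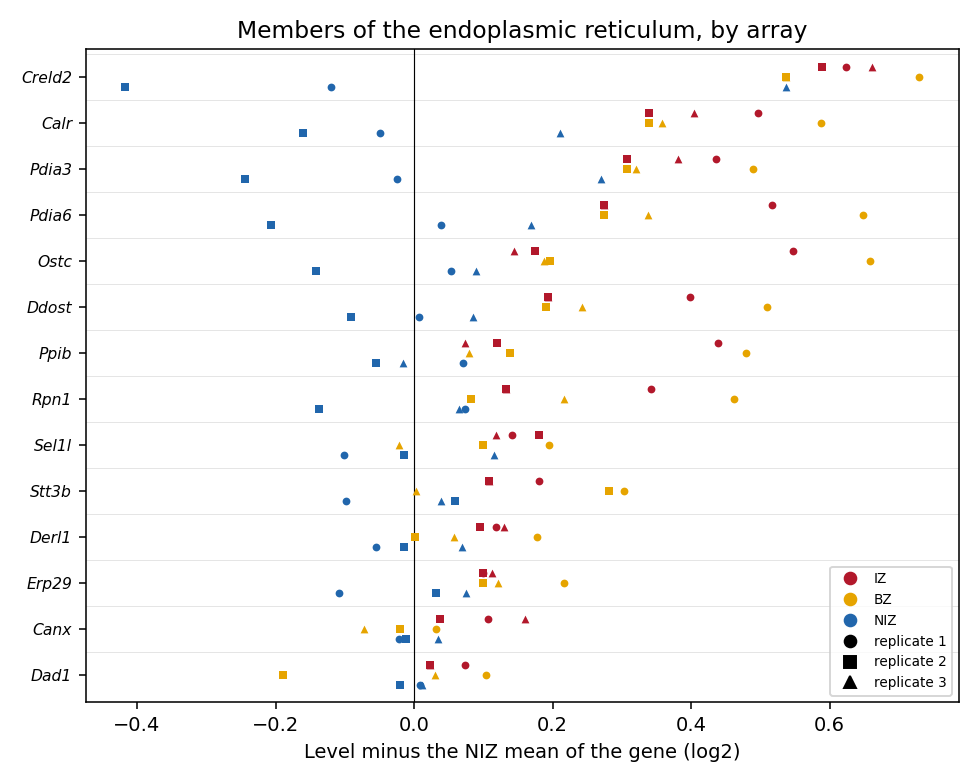
Level on each array minus the NIZ mean of the same gene (log2) for 14 genes of the endoplasmic reticulum that were higher in IZ without overlap. Colours mark the zone and symbols the replicate; BZ replicate 1 is the highest array for most genes, and NIZ replicate 3 is often the rightmost blue point.

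Of 31 heat shock and ER stress genes at level 6 or more, these 6 were higher without overlap and 2 were lower, where 2.63% and 2.23% of all genes were, and the median difference was 0.10 log2. Genes of the same list that overlapped by 1 NIZ array included Hspa5, the main ER chaperone BiP, at 10.54, 10.48 and 10.75 in IZ and 10.11, 10.08 and 10.56 in NIZ, and Hsp90b1, the ER form of Hsp90, at 10.78, 10.80 and 10.98 in IZ and 10.23, 10.22 and 10.81 in NIZ. Xbp1, Ddit3 and Atf4, transcription factors of the ER stress response, differed by 0.11, -0.04 and -0.27. Not every ER gene without overlap was higher. Eif2ak3, the ER stress kinase PERK, was lower without overlap, with a difference of -0.06 and a gap of 0.006.

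The oligosaccharyltransferase, the complex that transfers sugar chains to new proteins in the ER, was represented by 5 of its 12 measured genes (41.7%, against 2.63% of all genes). Ostc was at 9.71, 9.33 and 9.30 in IZ and 9.21, 9.02 and 9.25 in NIZ, and Ddost at 9.84, 9.63 and 9.63 in IZ and 9.45, 9.35 and 9.53 in NIZ. Rpn1 differed by 0.20, the catalytic subunit Stt3b by 0.13 and Dad1 by 0.04, the last with a gap of 0.01. Of all 12 genes, which were listed after these values were seen, 11 had positive differences (12 after median centring), with a median of 0.16 log2. Magt1, a subunit with thioredoxin-like folds, had a larger difference, 0.56, but overlapped, with 7.95, 7.95 and 8.67 in NIZ. Of 12 disulfide isomerases and their relatives at level 6 or more, 3 were higher without overlap (25%) and 9 had positive differences. The COPI coat, which returns vesicles to the ER, gave Copa and Copz1 (22.2%), and all 9 of its genes had positive differences (8 after quantile normalization), at a median of 0.11. The COPII coat, which carries cargo out of the ER, gave Sec31a alone of 10 (10%), and its median was 0.03. P4ha1, which hydroxylates collagen prolines in the ER, was at 8.37, 8.23 and 8.15 in IZ and 8.08, 7.71 and 8.08 in NIZ.

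Promoters of Creld2, Calr, Pdia6 and Canx are shown because each holds the letters of the ER stress response element (CCAAT, any 9 bases, CCACG) in capitals. This motif was chosen after the values were seen. On either strand it was in 4 of the 223 promoters of higher genes (1.79%), in 0 of 222 of lower genes, in 14 of 9888 promoters of genes of level 6 or more (0.142%) and in 0.119% of all promoters of the table. In Creld2 (chr15:88819396-88819695, plus strand) and Calr (chr8:84846882-84847181, minus strand) it stands on the opposite strand, and in Pdia6 (chr12:17266339-17266638, plus strand) and Canx (chr11:50325624-50325923, minus strand) on the strand of the gene.
Creld2: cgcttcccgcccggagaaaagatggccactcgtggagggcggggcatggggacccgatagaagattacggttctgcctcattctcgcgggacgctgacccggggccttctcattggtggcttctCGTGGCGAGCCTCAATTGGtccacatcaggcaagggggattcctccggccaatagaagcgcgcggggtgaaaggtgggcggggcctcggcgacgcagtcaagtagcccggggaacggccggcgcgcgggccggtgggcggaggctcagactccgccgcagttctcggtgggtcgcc
Calr: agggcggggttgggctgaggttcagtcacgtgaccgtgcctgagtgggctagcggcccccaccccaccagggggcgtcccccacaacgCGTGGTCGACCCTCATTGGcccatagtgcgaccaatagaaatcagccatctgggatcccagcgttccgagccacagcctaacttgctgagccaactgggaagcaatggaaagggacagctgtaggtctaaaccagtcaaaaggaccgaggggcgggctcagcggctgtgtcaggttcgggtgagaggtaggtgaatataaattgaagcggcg
Pdia6: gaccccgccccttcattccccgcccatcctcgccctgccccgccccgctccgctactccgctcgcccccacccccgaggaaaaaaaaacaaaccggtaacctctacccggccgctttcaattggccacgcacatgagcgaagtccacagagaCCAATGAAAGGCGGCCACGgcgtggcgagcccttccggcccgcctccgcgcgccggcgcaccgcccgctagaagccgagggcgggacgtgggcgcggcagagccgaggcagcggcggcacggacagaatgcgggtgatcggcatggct
Canx: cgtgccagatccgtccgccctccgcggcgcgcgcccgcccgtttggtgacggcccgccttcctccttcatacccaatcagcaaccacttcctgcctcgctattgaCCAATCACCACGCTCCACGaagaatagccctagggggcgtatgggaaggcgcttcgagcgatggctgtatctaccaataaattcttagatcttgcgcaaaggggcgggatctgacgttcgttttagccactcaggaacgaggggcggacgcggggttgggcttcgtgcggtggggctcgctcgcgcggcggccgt

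A pair of genes of DNA replication was among the higher genes. Mcm4 and Mcm5, subunits of the helicase that opens DNA at replication origins, differed by 0.41 and 0.46 log2. Mcm4 was at 7.16, 6.63 and 6.49 in IZ and 6.41, 6.30 and 6.33 in NIZ, and Mcm5 at 6.91, 6.08 and 5.97 in IZ and 5.96, 5.78 and 5.84 in NIZ. IZ replicate 1 stood above the other IZ arrays in both. All 5 measured helicase genes had positive differences, with a median of 0.34 log2, but averaged over the 5 the deviation from the 9-array mean was -0.26 in IZ replicate 3 and -0.10 in NIZ replicate 1, so that the zones overlapped. The same 2 genes were without overlap among 12 cell cycle genes at level 6 or more (16.7%, against 2.63% of all genes). Of the 12, 11 had positive differences with a median of 0.25. Of ribosomal protein genes, 6 of 38 were higher without overlap (15.8%, against 2.63% of all genes), with 34 of 38 differences positive and a median of 0.06 log2. After median centring 14 of the 38 were without overlap and after quantile normalization 3, and without NIZ replicate 3 the median was 0.03 with 26 of 38 positive.

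A few genes known from heart muscle were among the higher genes. Of 8 cardiomyocyte markers, 4 had positive differences and the median was 0.00. Of these markers 0 were without overlap, which is near the shares of all genes, 2.63% higher and 2.23% lower. Rrad, a small GTPase that restrains the cardiac calcium channel, was at 10.74, 10.70 and 11.12 in IZ and 10.56, 10.25 and 10.39 in NIZ. Cdh2, the N-cadherin of the intercalated disc, measured 11.03, 10.82 and 10.74 in IZ and 10.52, 10.47 and 10.73 in NIZ, and Slc8a1, the sodium-calcium exchanger, 8.67, 8.40 and 8.41 in IZ and 8.20, 8.32 and 8.34 in NIZ. Dmd, dystrophin, which ties the membrane of muscle fibres to actin, differed by 0.23. Cdh2 and Slc8a1 were 2 of 31 genes of ion channels and electrical coupling (6.45%, against 2.63% of all genes), of which 20 had positive differences. In the contractile list, 0 of 33 genes were higher without overlap and 1 was lower (3.03%), against 2.63% and 2.23% of all genes. These counts do not set the list apart. The lower gene was Tpm1, tropomyosin, with a difference of -0.07 log2 and a gap of 0.0018. After median centring Tpm1 overlapped and 1 other contractile gene was higher without overlap. Clu, the secreted chaperone clusterin, and Cp, the copper carrier ceruloplasmin, were higher by 0.34 and 0.14, while the difference of Cp between BZ and NIZ was -0.23. Scgb3a1, a small secreted protein known from airway epithelium, was among the 10 widest gaps, with 7.0, 6.99 and 7.57 in IZ and 6.11, 6.71 and 6.80 in NIZ.

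The largest difference away from IZ was that of Adm, which encodes adrenomedullin, a vasodilator peptide of endothelium and muscle. Adm measured 6.98, 7.28 and 7.34 in IZ and 8.73, 8.05 and 7.72 in NIZ, a difference of -0.97 ± 0.31 log2, or 1.95-fold higher in NIZ, with a gap of 0.38. NIZ replicate 1 was highest, and the BZ arrays, at 8.33, 7.88 and 7.36, overlapped the NIZ arrays. Edn1, the vasoconstrictor endothelin-1, was at 7.03, 6.95 and 6.85 in IZ and 8.10, 7.29 and 7.05 in NIZ, and NIZ replicate 3 came within 0.02 of IZ replicate 1. Thbd, thrombomodulin, which turns thrombin into an anticoagulant on the endothelial surface, was at 8.25, 8.33 and 8.19 in IZ and 9.25, 8.53 and 8.43 in NIZ.

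Several genes of endothelium were among the lower genes. Klf2 and Klf4, transcription factors that blood flow induces in endothelium, differed by -0.37 and -0.37 log2. Klf2 was at 7.85, 8.14 and 8.08 in IZ and 8.47, 8.47 and 8.26 in NIZ, and Klf4 at 7.95, 8.20 and 7.99 in IZ and 8.27, 8.66 and 8.31 in NIZ. Sox18, a transcription factor of vessel development, measured 8.36, 8.37 and 8.19 in IZ and 8.75, 8.64 and 8.43 in NIZ, a difference of -0.30 ± 0.09. Fabp4, which carries fatty acids in capillaries and fat cells, was at 10.45, 10.52 and 10.48 in IZ and 11.09, 10.90 and 10.54 in NIZ. Robo4 and Emcn, surface proteins of endothelium, differed by -0.23 and -0.16. Tmem204, a membrane protein of vessels, had one of the widest gaps among the lower genes, 0.21, with 8.15, 8.26 and 8.12 in IZ and 8.68, 8.50 and 8.47 in NIZ. Fzd4, the receptor of Norrin in vessel growth, differed by -0.44.

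Of 49 endothelial genes at level 6 or more, 5 (Thbd, Fabp4, Sox18, Robo4 and Emcn) were lower in IZ without overlap (10.2%, against 2.23% of all genes) and 0 higher. Negative differences were found in 39 of the 49, and the median was -0.10 log2, which was -0.08 after median centring and -0.17 without NIZ replicate 3. After centring 3 genes of this list were without overlap, and after quantile normalization 8. The mean level of 7 defining endothelial markers ranged from 9.35 to 9.49 over the IZ arrays and from 9.35 to 9.54 over the NIZ arrays. Of these 7, 2 had positive differences, and the median was -0.03 log2. Of the 7, 1 was lower without overlap and the others overlapped. Cdh5, VE-cadherin, differed by -0.03, Kdr, the main receptor of vascular endothelial growth factor, by -0.02 and Pecam1, CD31, by -0.18. Nos3, the endothelial nitric oxide synthase, was at 7.51, 7.63 and 7.40 in IZ and 8.05, 7.70 and 7.62 in NIZ.

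The promoter of Klf2 (chr8:72318812-72319111, plus strand) is shown because it holds, in capitals, the letters of the MEF2 element (CTA, any 4 bases, TAG).
Klf2: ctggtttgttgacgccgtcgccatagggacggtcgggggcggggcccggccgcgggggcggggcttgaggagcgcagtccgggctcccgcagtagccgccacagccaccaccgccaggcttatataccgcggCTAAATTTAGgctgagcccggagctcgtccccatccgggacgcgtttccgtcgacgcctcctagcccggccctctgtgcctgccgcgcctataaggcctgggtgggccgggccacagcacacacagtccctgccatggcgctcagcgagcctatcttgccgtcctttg
On either strand these letters were in 2.24% of the promoters of higher genes, 2.25% of those of lower genes and 3.17% of those of all genes of level 6 or more. Further motifs were counted in the same 3 groups and are not shown. Among them, the PU.1 letters (GAGGAAGT) were in 6.28%, 2.25% and 3.11%, and the HIF core (ACGTG) in 23.8%, 25.2% and 25.8%. No difference in motifs was tested.

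Id1 and Id3, inhibitors of DNA binding by basic helix-loop-helix factors and targets of bone morphogenetic protein signalling, were lower in IZ. Id1 was at 8.82, 8.85 and 8.65 in IZ and 9.89, 9.46 and 8.88 in NIZ, a difference of -0.64 ± 0.22 log2, and Id3 at 6.91, 6.95 and 6.78 in IZ and 7.21, 7.08 and 6.99 in NIZ. Their relatives Id2 and Id4 overlapped, with differences of -0.24 and -0.03. Irx3 and Irx5, homeobox genes of the same cluster known from ventricular conduction, differed by -0.23 and -0.09. Klf2 and Klf4 were 2 of 27 immediate early genes at level 6 or more (7.41%, against 2.23% of all genes that were lower). Of these 27, 22 had negative differences with a median of -0.17, which was -0.42 without NIZ replicate 3.

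Hspa1a, the inducible cytosolic chaperone Hsp70, had IZ levels of 6.47, 6.49 and 6.34 and NIZ levels of 7.95, 6.84 and 6.64. The IZ arrays lay together, while NIZ replicate 1 was more than 1 log2 above the other NIZ arrays, and a near-identical neighbour, Hspa1b, makes its level uncertain. Hspb8, a small heat shock protein of muscle, was at 10.94, 10.93 and 10.94 in IZ and 11.30, 11.06 and 11.05 in NIZ. It differed by -0.20 log2, and its IZ arrays were nearly equal. These were the 2 cytosolic members of the heat shock and ER stress list that were lower, beside the 6 ER proteins that were higher.

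Several of the remaining large differences rested on 1 NIZ array. Igsf11, an adhesion protein, was at 7.28, 5.90 and 5.90 in NIZ and 5.86, 5.89 and 5.71 in IZ, and Akap12, an anchor of protein kinase A, at 8.37, 7.31 and 7.31 and 7.27, 7.24 and 7.25. In both only NIZ replicate 1 was far from the IZ arrays. Gprc5a, an orphan receptor that retinoic acid induces, was at 7.01, 6.21 and 6.05 in NIZ and 5.71, 5.70 and 5.96 in IZ. Slc39a10, a zinc importer, differed by -0.51, Galnt15, which starts mucin-type sugar chains, by -0.48, Itga3, a laminin-binding integrin, by -0.42 and Epha2, an ephrin receptor, by -0.37. NIZ replicate 1 was the NIZ array farthest from IZ in 116 of the 212 lower genes, and replicate 2 was so in 117 of the 250 higher genes.

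Zinc finger genes named Zfp were 10 of the 462. Of 193 at level 6 or more, 9 were lower without overlap (4.66%, against 2.23% of all genes) and 1 higher, and 121 differences were negative, at a median of -0.02 log2. Median centring turned this median to 0.01, with 21 higher and 7 lower, and quantile normalization gave a median of -0.01 with 0 higher and 15 lower, so that no direction can be given for this family. Mediator subunits were split, with 3 of 27 higher (11.1%, against 2.63% of all genes) and 2 lower (7.41%, against 2.23%). The counts were 7 and 1 after centring and 1 and 2 after quantile normalization.

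**Figure D4:**
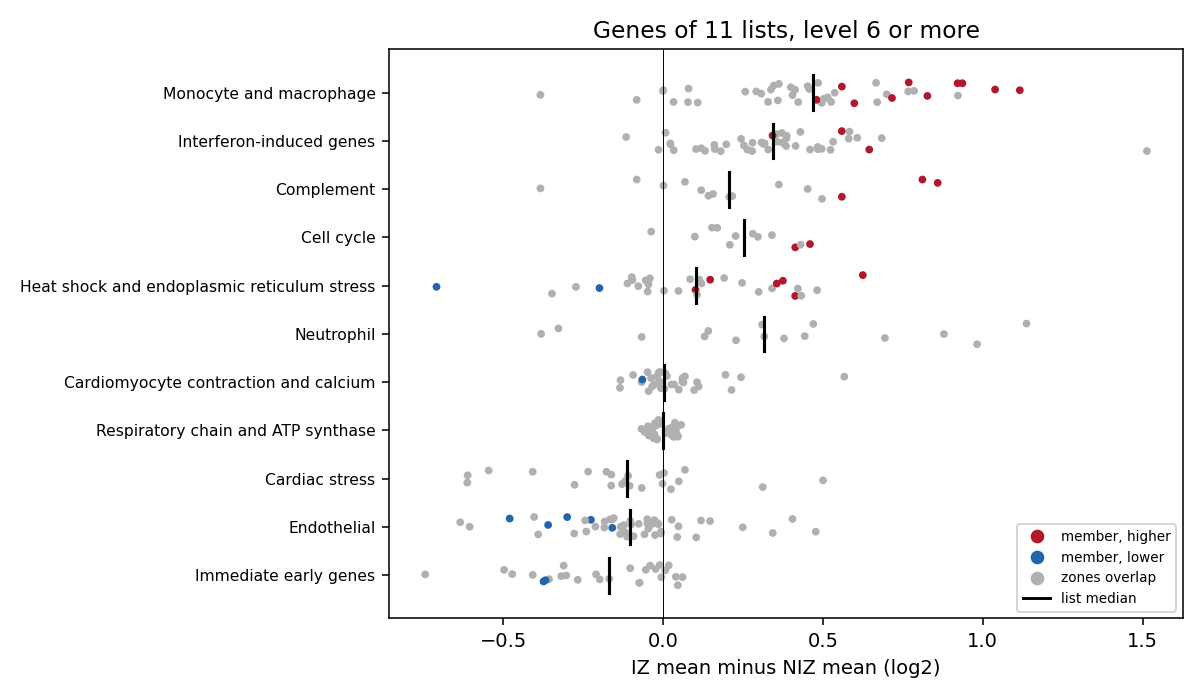
Difference between the IZ mean and the NIZ mean (log2) for genes of 11 lists at level 6 or more. Each point is a gene, red or blue where the zones did not overlap and grey where they did, and the bar is the list median; macrophage and interferon genes lie mostly to the right of 0, endothelial and immediate early genes mostly to the left, and respiratory chain genes close to 0.

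Genes of energy metabolism gave 1 separated gene. Of all 9489 genes, 2.63% were higher and 2.23% lower without overlap. A count of 0 or 1 in the lists of this paragraph is therefore near what those shares give and does not set a list apart. Of 34 respiratory chain and ATP synthase genes, 0 were without overlap and all differences lay between -0.07 and 0.06 log2. The tricarboxylic acid cycle list had 0 of 31, the glycolysis list 0 of 21 and the fatty acid list, whose differences reached -0.61 log2, 1 of 36, which was Fabp4. Without NIZ replicate 3 the differences were positive in 31 of 34 respiratory chain genes and in 31 of 31 tricarboxylic acid cycle genes, whose median was then 0.13 against 0.05. Cardiac stress genes were likewise without a separated member among 22, although their median of -0.11 became -0.51 without NIZ replicate 3. Nppa and Nppb, natriuretic peptide genes of the stressed heart, overlapped. Nppa was at 13.32, 12.35 and 11.72 in IZ and 13.09, 13.69 and 12.44 in NIZ, and Nppb at 11.91, 11.02 and 10.90 in IZ and 12.26, 11.32 and 10.74 in NIZ. Nppa is also 1 of the 4 atrial markers, which were highest in NIZ replicate 2. Hypoxia-inducible genes gave P4ha1 higher and Adm lower of 17 (5.88% each). Vegfa, the vascular endothelial growth factor, was at 9.15, 9.49 and 9.54 in IZ and 8.61, 9.06 and 9.67 in NIZ. Extracellular matrix genes gave 0 of 47. Smtn, smoothelin of smooth muscle, and Phlda3, a p53 target, were lower by 0.11 and 0.07 log2. Bclaf1, whose protein is bound by the long noncoding RNA of the study, overlapped, with 7.52, 7.47 and 7.38 in IZ and 7.47, 7.63 and 7.47 in NIZ. These are RNA levels in zones of operated hearts, while the study measured Bclaf1 protein in I/R against sham-operated hearts.

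The BZ arrays were not used to choose the genes, but BZ against NIZ and IZ against NIZ share the NIZ arrays, so that both differences are given side by side only. The BZ mean lay on the IZ side of the NIZ mean in 231 of the 250 higher genes and in 176 of the 212 lower genes. It was beyond the IZ mean in 69 and 61 and between the zones in 162 and 115. All 3 BZ arrays lay outside the NIZ range, on the IZ side, in 90 of the 250 and in 64 of the 212. The shares of all 9489 genes were 2.2% above and 1.53% below. Those genes were not chosen by their NIZ arrays, so that a higher share in the chosen genes follows in part from the choice. For Ms4a4c the BZ arrays were at 9.52, 8.74 and 7.16, so that replicate 3 fell within the NIZ range and replicate 1 exceeded every IZ array. Ccl11 differed more in BZ than in IZ, by 1.10 against 0.61 log2 from NIZ, with BZ arrays at 7.69, 7.15 and 6.63. Cfb was at 7.63, 7.58 and 7.07 in BZ, a difference of 0.95. Calr, with a BZ difference of 0.43, and Pdia3, with 0.37, were about as far from NIZ in BZ as in IZ. Hspa1a was not, with BZ arrays at 7.59, 7.35 and 6.52 and a BZ mean 0.01 log2 from that of NIZ, and Rrad differed by 0.17 in BZ against 0.46 in IZ.

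**Figure D5:**
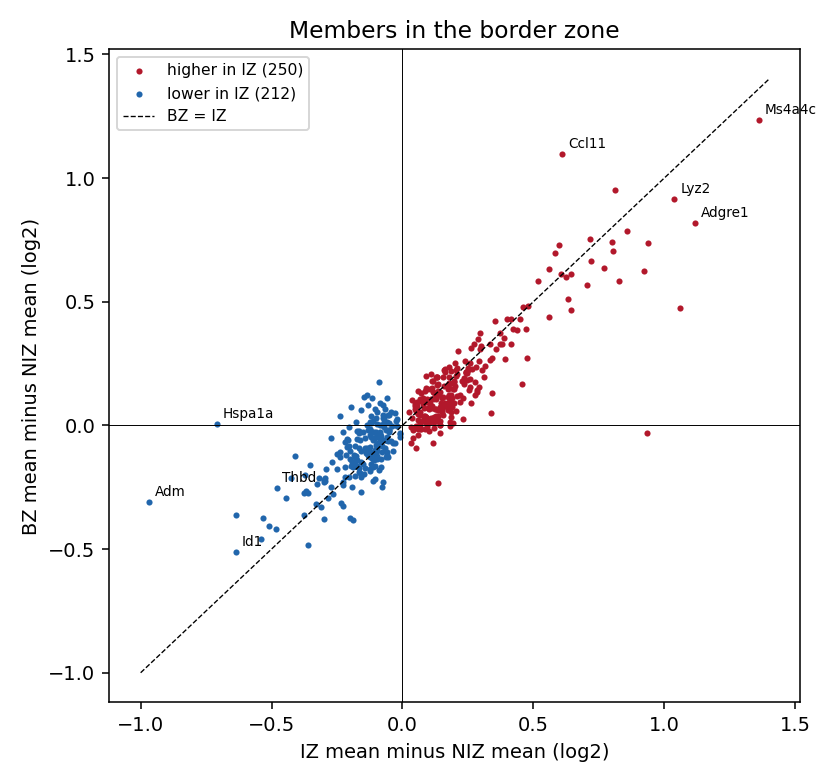
BZ mean minus NIZ mean against IZ mean minus NIZ mean (log2) for the 250 genes higher (red) and 212 lower (blue) in IZ; both axes share the NIZ arrays, and the dashed line marks equal BZ and IZ levels. Most points lie on the same side of 0 on both axes, with Ccl11 above the line and Hspa1a near 0 in BZ.

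At the level limit of 6, the genes just inside were Mterf4 (mean level 6.00, difference 0.23), Amigo2 (6.01, -0.18) and Hif3a (6.02, -0.10). Just outside, and so not counted, were Dgkh (6.00, -0.17), Lst1 (5.99, 0.64) and Pgghg (5.94, 0.10). Below level 6, a further 124 genes were higher and 292 lower without overlap among 9517. At level 6 or more, differences over 0.5 log2 with overlapping arrays were found in 105 genes higher and 67 lower in IZ, more than the 27 and 7 without overlap. Il1b, the gene of interleukin-1 beta, was an example, at 10.08, 9.98 and 10.08 in IZ and 10.83, 9.21 and 6.69 in NIZ.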

How the data were processed

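RNA from IZ, BZ and NIZ was hybridised to 9 single-colour GeneChip Mouse Transcriptome Assay 1.0 arrays, 3 per zone. The authors deposited log2 values per transcript cluster, made with robust multi-array average (RMA) in Affymetrix Expression Console 1.0, with Transcriptome Analysis Console 3.0 named for the comparisons. RMA brings the probe intensities of all arrays to a common distribution, so that a shift shared by most genes would not be seen. The number of arrays limits the precision.

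Symbols came from the platform annotation and gene types from RefSeq, with 30414 of 65534 clusters holding 1 symbol, 2146 several and 32974 none. For each symbol the cluster with the highest mean over 9 arrays was kept. All clusters were fitted with limma 3.58.1 (R 4.3.3) on all 9 arrays, with Benjamini-Hochberg adjustment over 65534 clusters. In simulated arrays, this fit of IZ against NIZ over 65534 clusters recovered 91 of 100 changes of 1 log2 and 99 of 100 of 2 log2, and called 13 unchanged clusters. The simulated noise was independent between arrays and had the same spread in every zone. In the real arrays NIZ spread more than IZ and same-numbered arrays deviated together. The simulation therefore checks the code and does not give the share of real changes that the fit would find.

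The genes described and the gene lists were chosen with earlier results of these data known. Named were the 15 largest differences in each direction, the 10 widest gaps, up to 4 genes of each list, and the genes beside the level limit. The other genes named, the gene families and the ER stress response element were chosen after their values were seen. Promoters came from RefSeq. Scaling, filters, a block on array number, array weights, the level limit and each array were varied.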

Additional observations from a re-analysis of the deposited data

How the results depend on the processing

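None of the 64 genes named by rule reversed its direction under the alternatives run. This was largely fixed by the choice of genes and is no support for their differences. Where zones do not overlap, leaving out 1 array cannot reverse a difference, and a changed variance model leaves it as it is. Of the genes without overlap, 250 were higher and 212 lower. Median centring gave 1238 and 102, quantile normalization gave 410 lower, a level limit of 7 gave 121 lower, and leaving out 1 array gave 346 to 1647 higher and 332 to 1338 lower, where fewer arrays make no overlap easier. The BZ mean lay on the IZ side of NIZ in 407 of the 462 genes. After centring it did so in 1048 of the larger set of 1238 higher and 102 lower genes. The counts 407 and 1048 therefore have different totals, and the larger count does not show closer agreement of BZ with IZ. The limma calls of 0 became 0 to 59 higher and 0 to 157 lower when 1 array was left out, and only the fits without NIZ replicate 3 made calls. The methods' test called 97 higher and 309 lower unadjusted, and 0 after adjustment. The cause of these shifts was not tested.

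Array numbers recur in each zone. Same-numbered IZ and NIZ arrays deviated together with correlations of 0.36, 0.08 and 0.25, so that not every pair passed 0.1, while those of BZ and NIZ gave 0.62, 0.20 and 0.52. The labels do not say which arrays came from 1 mouse, and the numbers were not used as pairs in the main fit. With the replicate block the limma fit called 0 clusters, with 1418 higher and 2480 lower at an unadjusted p under 0.05. Compared number by number, 1211 of the 9489 genes were higher and 1063 lower in IZ for all 3 numbers. This rule is weaker than no overlap, and a same sign for all 3 numbers is not rare without any difference. These counts are therefore no gain over the 250 and 212. Each IZ and NIZ array correlated best with its own number, which is a hint from the data.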

Other observations

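Many genes had exactly the same deposited value on several arrays. This held for 252 of the 462 genes (54.5%) and for 64.4% of all genes of level 6 or more. Naa35, for example, had the same level of 7.97 on all 3 BZ arrays.

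Some of the genes are neighbours on a chromosome and lay on the same side of NIZ, such as Lyz1 and Lyz2, Oas1a and Oas1g, Clec4a1 and Clec4a3, and Tubg1 and Tubg2. Of the 462 genes, 414 were in none of the 32 lists.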
